A study of Mus musculus with 4 samples.

Results

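The genes described here are 10 sensors of small molecules and their close partners: the aryl hydrocarbon receptor gene Ahr, its repressor Ahrr, its partner Arnt, its targets Tiparp, Cyp1a1 and Cyp1b1, the retinoid receptors Rara, Rarg and Rxra, and the vitamin D receptor Vdr. They were picked by gene symbol from 19504 genes with a symbol in a table of expression values, all 10 were found, and each had 1 row. The table holds 1 Affymetrix array for each of 4 bulk samples of sorted mouse ILC3s (innate lymphoid cells of group 3), lymphocytes of barrier tissues that make IL-22 and IL-17. The samples came from circZbtb20-/- mice, which lack a circular RNA of the Zbtb20 gene, from circZbtb20+/+ wild types, from Nr4a1-/- mice, which lack an orphan nuclear receptor, and from Nr4a1+/+ wild types. All cells were sorted as lineage-negative cells with low CD45 and high CD90. The sources used here name no tissue, age, treatment or deleted exon, and do not say whether cells of several mice were pooled. Since each genotype has a single array, replicate error is unknown, the number of arrays limits the precision, and the differences below have no test unless a limma fit is named.

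AHR is a transcription factor that waits in the cytosol with chaperones until it binds a ligand such as a dioxin, a dietary indole or a product of tryptophan. It then enters the nucleus, pairs with ARNT and switches on detoxifying enzymes such as CYP1A1 and CYP1B1, together with AHRR and TIPARP, which damp the response. ILC3s of the gut depend on AHR for their upkeep and for IL-22. RARs bind retinoic acid, a product of vitamin A, and work as pairs with RXRs, which also partner the vitamin D receptor, and both vitamins act on gut lymphocytes.

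Values are deposited log2 values, and differences are in log2 units, knockout minus wild type, so that a difference of 1 is 2-fold on the deposited scale. A gene is called higher or lower where the difference was at least 2-fold and the higher value reached the median of its own array. Those medians were 4.38 for the circZbtb20-/- array, 4.48 for its wild type, 4.34 for the Nr4a1-/- array and 4.51 for its wild type. Values stop at 19.93, so a difference from that ceiling is a bound. Each knockout was set against both wild types. Its 2 comparisons share the knockout array, and both knockouts share the wild types, so none of the comparisons is independent of the others.

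The identity of the arrays bears on every value below. The Nr4a1-/- array went against the label of an ILC3 sample. Of 16 measured T cell markers, all 16 were at or above the array median there, with a mean value of 14.89, against 13 markers and a mean of 5.94 in its wild type. Of 16 measured ILC3 markers, 12 reached the median in the Nr4a1-/- array, with a mean of 8.49, against all 16 and a mean of 12.85 in its wild type. Against both wild types 10 of these 16 were called lower there and 3 higher, where 15.7% and 28.4% of all genes past the filter were. Kit was the ILC3 marker with the largest decrease, at 5.48, against 18.36 in the Nr4a1+/+ array, while Tox, Thy1 and Ltb were higher. Il22 was at the ceiling of 19.93. The circZbtb20-/- array kept all 16 ILC3 markers at or above its median, with a mean of 14.32, against 12.76 in its wild type. Against that wild type 9 of the 16 were called higher and 5 lower, where 27.3% and 19.4% of all genes past the filter were. The widest difference was that of Il17a, at 15.79, against 5.10, while Il22, Id2, Il1r1, Cxcr6 and Thy1 were lower. The T cell markers of this array averaged 5.64, against 5.36 in its wild type. The 8 ILC2 markers averaged 4.74 in the circZbtb20-/- array and 4.80 in the Nr4a1-/- array, against 8.14 in the circZbtb20+/+ array and 8.41 in the Nr4a1+/+ array. The 9 pancreatic acinar markers averaged 4.68 and 4.19 in these knockouts, against 11.09 and 8.51. Over the 7 B cell markers the array means lay between 3.81 and 4.44, over the 8 hepatocyte markers between 3.98 and 4.55, and 2 B cell markers reached the median on each array. The 11 NK and ILC1 markers averaged 7.11 in the circZbtb20-/- array and 6.51 in the Nr4a1-/- array, against 9.23 and 8.90 in the circZbtb20+/+ and Nr4a1+/+ arrays. The 11 macrophage and dendritic cell markers averaged 4.84 and 4.87 in these knockouts, against 5.84 and 6.97, and the 10 intestinal epithelial markers 6.11 and 4.10, against 5.62 and 7.40. Nr4a1 itself was at 11.63 in its knockout, against 18.11 in its wild type.

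**Figure D1:**
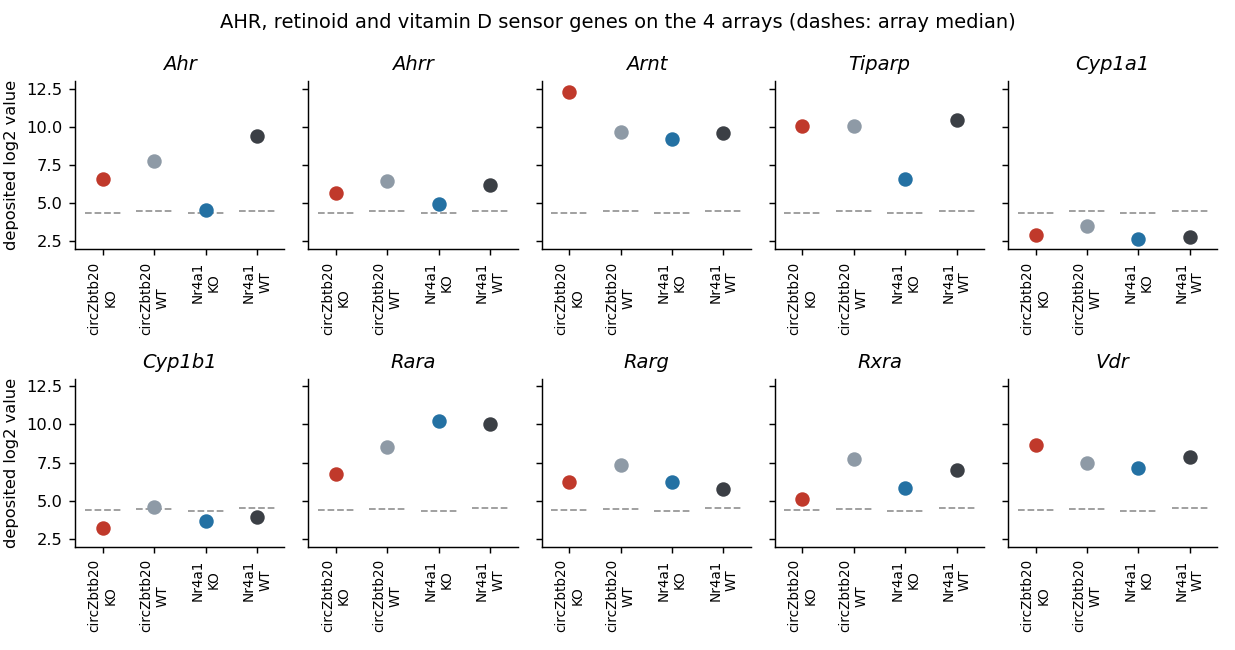
Deposited log2 value (vertical axis) of each of the 10 genes on each array (1 point per array), with a dashed line at that array's median over all rows. Ahr and Tiparp are lowest on the Nr4a1-/- array, Arnt is highest on the circZbtb20-/- array, and Cyp1a1 lies under the dashes on all 4 arrays.

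Ahr, the receptor itself, was lower in both knockouts. It was at 6.57 in the circZbtb20-/- array and at 4.54 in the Nr4a1-/- array, against 7.78 in the circZbtb20+/+ array and 9.39 in the Nr4a1+/+ array. Neither knockout value reached the range of the wild types, and the Nr4a1-/- array was only just above its array median of 4.34. The Nr4a1-/- array differed by -4.85 from its own wild type and by -3.24 from the other. Of the genes past the filter, 2.72% and 5.24% had a lower difference in these comparisons. The circZbtb20-/- array differed by -1.21 from its own wild type and by -2.82 from the other, where 15.6% and 3.45% of the genes had a lower difference. The wild types themselves differed by 1.61 for Ahr, the Nr4a1+/+ array being higher, which exceeds the difference of -1.21. In bulk samples fewer cells of a type and less RNA per cell cannot be told apart. The lower Ahr value of the Nr4a1-/- array stood beside its T cell mean of 14.89 and ILC3 mean of 8.49, whose part in the result was not tested.

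Arnt, which encodes the nuclear partner that AHR needs to bind DNA and which HIF proteins share, went another way. It was at 12.25 in the circZbtb20-/- array, against 9.63 in its wild type and 9.60 in the Nr4a1+/+ array. On the Nr4a1-/- array it was at 9.22. The wild types thus differed by -0.03, while the circZbtb20-/- array was higher by 2.62 and 2.65. After another quantile or a cyclic loess normalization that array's difference from its own wild type was 2.08 and 2.14. Differences of -0.38 and -0.41 on the Nr4a1-/- array were under the 2-fold size. For scale, 6.23% of the genes past the filter had a higher difference than Arnt in the circZbtb20-/- array against its wild type. In that array the receptor gene was lower and the partner gene higher, and in the Nr4a1-/- array the receptor gene was lower and the partner gene was not called.

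Tiparp encodes a poly(ADP-ribose) polymerase family enzyme that is induced by AHR and modifies it, which limits the response. It was at 6.55 in the Nr4a1-/- array, against 10.43 in its wild type and 10.02 in the circZbtb20+/+ array, and the circZbtb20-/- array was at 10.05. The Nr4a1-/- array stood apart from the other 3 arrays, by -3.88 and -3.47 from the wild types. The circZbtb20-/- array, where Ahr was lower too, differed in Tiparp by only 0.03 and -0.38, and by -0.48 and -0.46 from its own wild type after another quantile or a cyclic loess normalization, so its sign is not settled.

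Ahrr, the repressor that competes with AHR for ARNT and is itself induced by AHR, was at 4.95 in the Nr4a1-/- array, against 6.17 in its wild type and 6.42 in the circZbtb20+/+ array. A value of 5.68 was measured on the circZbtb20-/- array. Lower by -1.22 and -1.47, Ahrr was called on the Nr4a1-/- array against both wild types. With -0.74 and -0.49, it was not called on the circZbtb20-/- array. The wild types differed by -0.25 for this gene.

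Cyp1a1, the classical enzyme induced by AHR, was near the bottom of every array, at 2.89 in the circZbtb20-/- array and 2.64 in the Nr4a1-/- array, against 3.48 in the circZbtb20+/+ array and 2.79 in the Nr4a1+/+ array. No value reached its array's median, so no call was possible and the order of these values is not a result. Cyp1b1, a related enzyme, was at 3.21 in the circZbtb20-/- array and 3.67 in the Nr4a1-/- array, against 4.62 in the circZbtb20+/+ array and 3.91 in the Nr4a1+/+ array. The value of 4.62 alone reached its array median, by a narrow margin over 4.48. The resulting call of -1.41 in the circZbtb20-/- array rests on values close to or under the medians, where differences are poorly measured, and against the other wild type the difference was -0.70 with neither value past the filter.

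The promoters of the AHR-induced genes are shown because 2 of them, Tiparp and Ahrr, were lower in the Nr4a1-/- array and the others, Cyp1a1 and Cyp1b1, lay under the array medians in all but 1 value. The RefSeq promoter table (GRCm38.p6) held 9 of the 10 genes, all except Ahr. The letters GCGTG are the core of the element that AHR and ARNT bind, and they were searched on both strands (CACGC on the other) in the 250 bases before each start. Capitals mark every match in the 5′ to 3′ sequences of the gene's strand, taken from chr3:65528197-65528446 (plus) for Tiparp, chr13:74292332-74292581 (minus) for Ahrr, chr9:57697363-57697612 (plus) for Cyp1a1 and chr17:79715062-79715311 (minus) for Cyp1b1.
Tiparp: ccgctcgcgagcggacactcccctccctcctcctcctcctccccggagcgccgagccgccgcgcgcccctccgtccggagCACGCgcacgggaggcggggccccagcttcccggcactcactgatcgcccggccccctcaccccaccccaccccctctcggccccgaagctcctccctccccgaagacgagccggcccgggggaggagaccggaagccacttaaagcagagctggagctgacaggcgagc
Ahrr: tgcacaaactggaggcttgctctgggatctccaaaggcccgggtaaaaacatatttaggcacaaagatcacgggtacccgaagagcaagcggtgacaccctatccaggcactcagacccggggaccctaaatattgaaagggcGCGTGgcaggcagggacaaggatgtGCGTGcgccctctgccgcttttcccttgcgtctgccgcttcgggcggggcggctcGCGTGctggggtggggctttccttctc
Cyp1a1: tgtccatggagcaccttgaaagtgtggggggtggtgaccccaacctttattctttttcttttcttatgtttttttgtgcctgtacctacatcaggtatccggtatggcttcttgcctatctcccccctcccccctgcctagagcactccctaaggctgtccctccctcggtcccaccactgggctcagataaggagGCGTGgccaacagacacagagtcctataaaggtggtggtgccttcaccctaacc
Cyp1b1: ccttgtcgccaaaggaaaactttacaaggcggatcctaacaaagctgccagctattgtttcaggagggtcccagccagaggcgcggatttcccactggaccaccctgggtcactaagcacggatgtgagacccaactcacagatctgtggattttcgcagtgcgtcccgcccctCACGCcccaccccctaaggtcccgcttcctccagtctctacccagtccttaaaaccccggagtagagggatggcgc
Ahrr held 3 matches and each of the other 3 genes held 1, against 28.2% of all 32851 promoter windows of this length with at least 1. The longer form TNGCGTG, which contains the core and was also searched on both strands, was found in 1 place in Ahrr and in none of the other 3 windows, and in 4.10% of all windows. Among the other genes the core occurred in 3 places in the second of 2 windows of Rarg, as many as in Ahrr, in 1 place each in the windows of Arnt and Vdr, and in 1 place in the first of 4 windows of Rara, there as the longer form. Neither of 2 windows of Rxra held it. A match is a description of the letters and no measure of binding, and the known elements of Cyp1a1 lie farther upstream than this window.

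Rara, the gene of retinoic acid receptor alpha, a main RAR of T cells, was at 6.77 in the circZbtb20-/- array, against 8.53 in its wild type and 10.02 in the Nr4a1+/+ array. Its value was 10.22 on the Nr4a1-/- array. Rara was thus lower on the circZbtb20-/- array by -1.76 and -3.25, under both wild types, which differed from each other by 1.49. For the Nr4a1-/- array the difference from its own wild type was 0.20, changed sign to -0.14 and -0.36 after another quantile or a cyclic loess normalization, and was 1.69 against the other wild type. The value of the Nr4a1-/- array was thus close to 1 wild type and above the other.

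Rxra, which encodes the shared partner of RAR, VDR and many other receptors, was lower in both knockouts. It was at 5.09 in the circZbtb20-/- array and at 5.81 in the Nr4a1-/- array, against 7.75 in the circZbtb20+/+ array and 7.04 in the Nr4a1+/+ array. Both knockout values lay under both wild types. The circZbtb20-/- array differed by -2.66 from its own wild type and by -1.95 from the other, and the Nr4a1-/- array by -1.23 and -1.94. Together with Ahr, Rxra was 1 of the 2 genes of the set called lower in both knockouts against both wild types, and since the knockouts share the wild types, this is 1 pattern and not a repeat.

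Rarg, the gene of retinoic acid receptor gamma, was at 6.20 in the circZbtb20-/- array and 6.23 in the Nr4a1-/- array, against 7.35 in the circZbtb20+/+ array and 5.74 in the Nr4a1+/+ array. Both knockouts lay between the wild types, which differed by -1.61, so every call for Rarg depended on the wild type chosen. Rarg was at -1.15 on the circZbtb20-/- array from its own wild type and at 0.46 from the other, and the Nr4a1-/- array at 0.49 and -1.12.

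Vdr was at 8.68 in the circZbtb20-/- array, against 7.46 in its wild type and 7.85 in the Nr4a1+/+ array. Vdr was at 7.16 on the Nr4a1-/- array. Vdr on the circZbtb20-/- array was higher by 1.22 than its own wild type and so was called, but by 0.83 than the other, and by 0.80 and 0.81 than its own after another quantile or a cyclic loess normalization. The Nr4a1-/- array differed by -0.69 and -0.30 and was not called, but by -1.11 and -1.29 from its own wild type under the same normalizations.

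**Figure D2:**
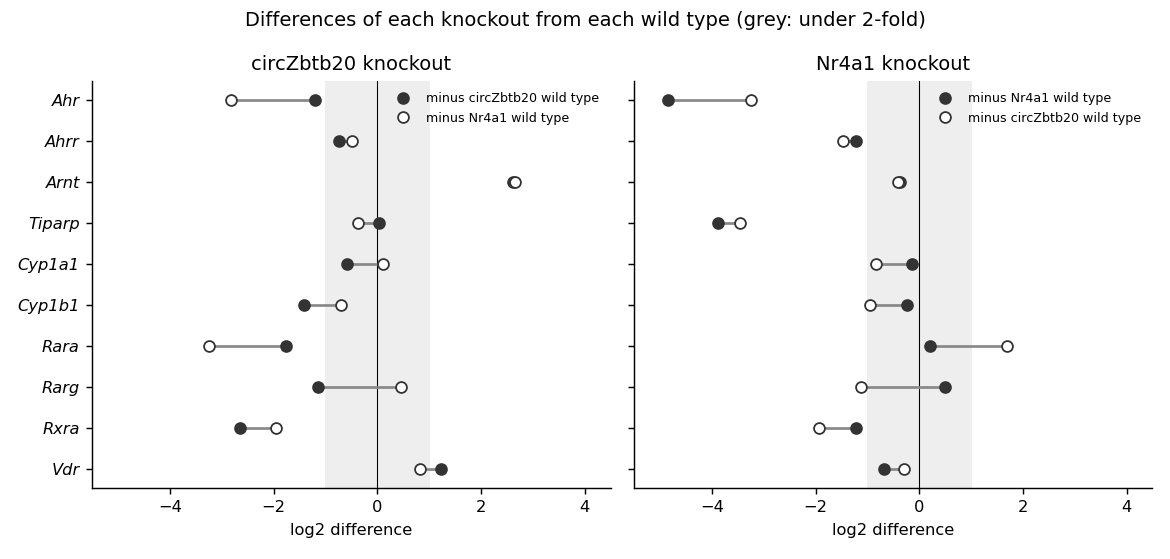
Log2 difference (horizontal axis) of each knockout from each wild type for the 10 genes. Filled points are differences from the paired wild type, open points from the other wild type, and the grey band is the range under 2-fold. In the circZbtb20-/- array both points of Ahr, Rara and Rxra lie left of the band and both of Arnt right of it, and in the Nr4a1-/- array both points of Ahr, Ahrr, Tiparp and Rxra lie left.

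Counted over the 10 genes, 9 passed the filter on the circZbtb20-/- array against its wild type, of which 2 were called higher, Arnt and Vdr, and 5 lower, Ahr, Rara, Rarg, Rxra and Cyp1b1. The same rule called 46.7% of all genes past the filter, 27.3% higher and 19.4% lower. Against the Nr4a1+/+ array 1 was higher and 3 lower of 8 past the filter, where the rule called 47.4% of all genes, 26.4% higher and 21.0% lower. Against both wild types the calls were 1 higher, Arnt, and 3 lower, Ahr, Rara and Rxra, where 36.7% of all genes were called, 22.3% higher and 14.4% lower.

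For the Nr4a1-/- array against its wild type 8 genes passed the filter, with 0 called higher and 4 lower, Ahr, Ahrr, Tiparp and Rxra. The rule called 52.7% of all genes there, 31.9% higher and 20.8% lower. Against the circZbtb20+/+ array Rara was higher and 5 genes were lower, Rarg in addition to those 4, of 9 past the filter, where the rule called 53.2% of all genes, 32.7% higher and 20.4% lower. Against both wild types those 4 stayed lower with 0 higher, where 44.0% of all genes were called, 28.4% higher and 15.7% lower. Between the wild types 9 passed the filter, with Ahr and Rara higher and Rarg lower on the Nr4a1+/+ array, where 15.2% of all genes were called, 8.48% higher and 6.77% lower. The share called on the circZbtb20-/- array was 7 of 9 beside 46.7% against its own wild type and 4 of 8 beside 47.4% against the other, and on the Nr4a1-/- array it was 4 of 8 beside 52.7% and 6 of 9 beside 53.2%. Calls were common among all genes, and a call by itself sets none of the 10 apart.

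At a 4-fold size 2 genes remained on the circZbtb20-/- array against its wild type, Arnt and Rxra, where 18.3% of all genes past the filter were called. Ahr and Tiparp, the 2 that remained on the Nr4a1-/- array, stood beside 25.0% of all genes. Against both wild types 1 gene, Arnt, reached that size on the circZbtb20-/- array, where 14.2% of all genes did, and Ahr and Tiparp did on the Nr4a1-/- array, where 20.9% of all genes did. Between the wild types 0 of the 10 genes differed by that size, and 1.91% of all genes did.

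The median difference of all 10 genes, with those under the filter included, was -0.94 in the circZbtb20-/- array against its wild type and -0.44 against the other, where the median of all 19504 genes was 0.04 and 0.00. The Nr4a1-/- array gave -0.53 and -1.04, where all genes had 0.00 and 0.02. Between the wild types it was -0.14, against 0.03 over all genes.

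The only fit with p-values was limma with both wild types as 1 group. Its error joins 1 residual degree of freedom, the difference between wild types of separate mouse lines, with a prior. That prior, drawn from all genes, had 2.54 of the total of 3.54 degrees of freedom. In the circZbtb20-/- array 0 of the 10 genes passed an adjusted p of 0.05 in limma, and 4 had an unadjusted p under 0.05, against 0 and 24.0% of all genes. Arnt came nearest, with an adjusted p of 0.0554 in limma, followed by Rxra at 0.0862 and Rara at 0.171. Tiparp passed on the Nr4a1-/- array, with an adjusted p of 0.0248 in limma, and 4 genes had an unadjusted p under 0.05, against 11.2% and 27.4% of all genes. The adjusted p of Ahr was 0.0680 in limma, of Ahrr 0.0920 and of Rxra 0.127. Ahr had the larger difference from the paired wild type, -4.85 beside -3.88 for Tiparp, and the larger gap between the wild types, 1.61 beside 0.41.

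Genes that act with AHR were read next, from lists chosen by function. Counts against both wild types are read beside 22.3% of all genes past the filter higher and 14.4% lower on the circZbtb20-/- array, and 28.4% and 15.7% on the Nr4a1-/- array. Of 9 measured genes of the AHR complex and its partners, 8 passed the filter, with 2 higher and 3 lower in the circZbtb20-/- array. Hsp90aa1, a chaperone that holds AHR in the cytosol, was at 18.14 in the circZbtb20-/- array, against 13.34 in its wild type and 16.03 in the Nr4a1+/+ array. Ptges3, the co-chaperone p23 of the same complex, was at 5.85, against 7.82 and 8.99. These 2 chaperone genes of the complex thus differed in opposite directions on 1 array. Ddb1, of the ubiquitin ligase that has been tied to AHR, was lower by -4.03 and -4.11. Arntl, the clock gene BMAL1 and a relative of Arnt, was higher by 2.09 and 1.66, as Arnt was. Cul4b, of the same ligase, was the 1 gene of the list that was higher on the Nr4a1-/- array, by 1.61 and 2.22, and 2 were lower. Epas1, which encodes the ARNT partner HIF-2 alpha, was at 3.46 in the Nr4a1-/- array, against 13.99 in its wild type and 13.21 in the circZbtb20+/+ array. Hif1a was at 12.86, against 14.68 and 15.62. On the circZbtb20-/- array Hif1a was at 13.46 and was called lower as well, by -2.16 from its own wild type and -1.22 from the other.

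Other genes that AHR can induce lay mostly under the filter. Of 11 measured, 5 passed the filter in the circZbtb20-/- array against its wild type, and 0 were higher and 2 lower against both wild types. Those were Slc7a5, an amino acid transporter, by -1.79 and -2.41, and Lpcat2, a phospholipid enzyme, by -1.78 and -2.05. Lower on the Nr4a1-/- array against both were 2 genes, Tnfaip2 by -8.17 and -6.27 and Lpcat2 by -1.92 and -1.65. Nqo1, the antioxidant enzyme, was at 3.68 in the circZbtb20-/- array and 2.84 in the Nr4a1-/- array, against 4.83 in the circZbtb20+/+ array and 4.27 in the Nr4a1+/+ array, so that 1 value of 4 reached its array median. Tryptophan is the source of several AHR ligands. Of 9 measured enzymes that act on it or on its products, 4 passed the filter against both wild types in each knockout. Among them Tph1 was the 1 gene called against both wild types in either knockout. It makes serotonin and was lower by -2.63 and -2.70 in the circZbtb20-/- array and by -2.17 and -2.10 in the Nr4a1-/- array. Ido1 lay between 3.14 and 3.69 on all arrays, under every median.

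**Figure D3:**
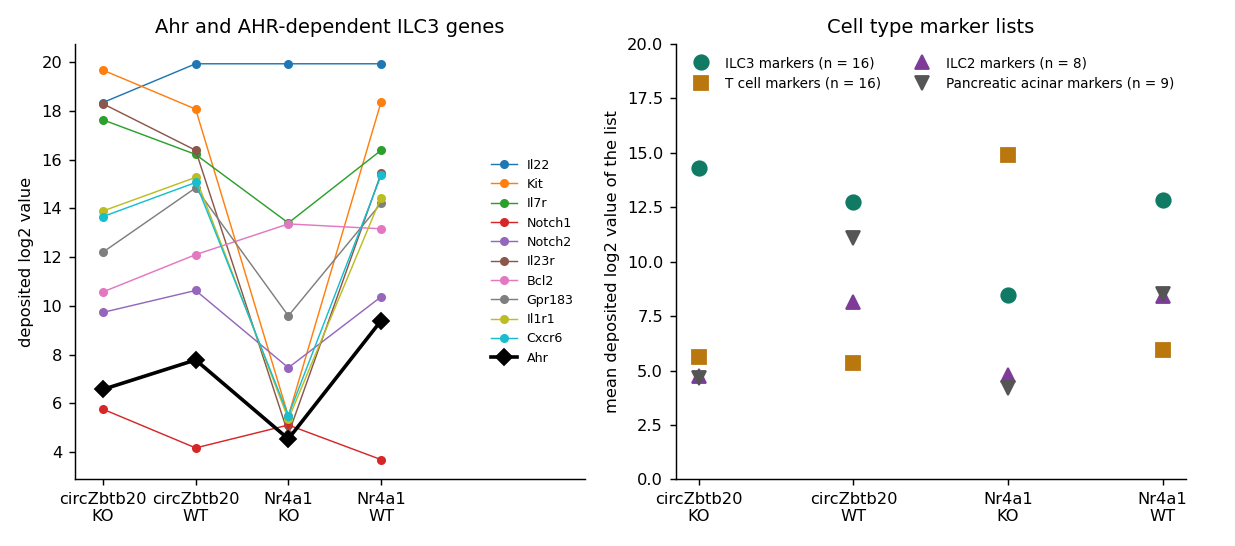
Left, deposited log2 values of Ahr (black) and of 10 genes known to depend on AHR in ILC3s on the 4 arrays, with thin lines joining a gene's values. Right, mean deposited log2 value of 4 marker lists per array. On the Nr4a1-/- array Ahr and 7 of the 10 genes are lower by at least 2-fold than in both wild types, and the T cell markers stand at 14.89, against 5.94 in its wild type.

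Genes known to depend on AHR in ILC3s were lower on the Nr4a1-/- array for the most part. Of 10 measured, there were 0 higher and 7 lower against both wild types, where 28.4% and 15.7% of all genes were. The median was -3.80 against its wild type and -4.21 against the other. Kit, the stem cell factor receptor gene, was at 5.48 in the Nr4a1-/- array, against 18.36 in its wild type, and Il23r, of the IL-23 receptor, was at 4.73, against 15.43. Cxcr6, a chemokine receptor gene, was at 5.50, against 15.35, and Il1r1, of the IL-1 receptor, was at 5.35, against 14.44. Of these 10 genes, 6 are also in the ILC3 marker list, and all were measured on the array with the T cell markers, so they are no separate measure of AHR activity. Il22 was at the ceiling of 19.93 in the Nr4a1-/- array and in both wild types, which gives no difference. In the circZbtb20-/- array, where Ahr was lower by -1.21 and -2.82, the same list was split. It had 4 genes higher and 4 lower than both wild types, and its median was -1.14 against its wild type and -0.60 against the other. Il23r was at 18.29 in the circZbtb20-/- array, against 16.38 and 15.43, and Notch1 was at 5.76, against 4.17 and 3.69. Those wild-type values of Notch1 lay under their array medians, so it could be called there only as higher. Gpr183, a receptor for oxysterols that positions ILC3s, was at 12.20, against 14.84 and 14.21, and Il22 was at 18.34, lower than both wild types by at least 1.59.

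The other genes of the retinoid pathway were read in the same way. Of 3 further RAR and RXR genes, 1 was called against both wild types: Rxrb, at 6.71 in the Nr4a1-/- array, against 4.90 in its wild type and 5.12 in the circZbtb20+/+ array. Rxrg was under the median on all 4 arrays, and Rarb on all but the circZbtb20+/+ array, where it was at 4.60. Dhrs3, which reduces retinal to retinol and is itself induced by retinoic acid, was at 16.99 in the circZbtb20-/- array, against 12.47 and 13.29 in the circZbtb20+/+ and Nr4a1+/+ arrays. Its value was 8.74 on the Nr4a1-/- array. The differences were 4.52 and 3.70 for the first and -4.55 and -3.73 for the second, and the wild types lay within 1 unit of each other. Aldh1a1, which makes retinoic acid, was at 3.22 in the circZbtb20-/- array and 3.44 in the Nr4a1-/- array, against 5.42 in the circZbtb20+/+ array and 6.41 in the Nr4a1+/+ array. Aldh1a3, of the same family, was lower by -1.82 and -3.33 in the circZbtb20-/- array. Of 20 measured genes of retinoid metabolism and transport, 12 passed the filter, and 3 were higher and 2 lower in the circZbtb20-/- array against both wild types, Rdh14 among the higher by 1.84 and 1.96. The wild-type values of Rdh14, 3.46 and 3.34, lay under their array medians, so it could be called there only as higher. For the Nr4a1-/- array the counts were 0 higher and 3 lower, among them Rbp2, a retinol-binding protein gene of enterocytes, by -3.27 and -1.86. The intestinal epithelial markers averaged 4.10 on that array, against 7.40 in its wild type, and their part in the Rbp2 value was not tested.

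Genes that retinoic acid induces did not move as 1 group. Of 11 measured, 7 passed the filter, and 2 were higher and 2 lower in the circZbtb20-/- array against both wild types. Itga4, the alpha 4 integrin of gut homing, was at 14.85 there, against 12.67 in its wild type and 13.42 in the Nr4a1+/+ array, while its beta 7 partner Itgb7 was at 5.92, against 8.53 and 7.66. Tgm2, a transglutaminase, was at 7.98 in the circZbtb20-/- array and at 3.99 in the Nr4a1-/- array, against 10.09 in the circZbtb20+/+ array and 9.76 in the Nr4a1+/+ array. On the Nr4a1-/- array 1 gene of the list was higher and 3 lower. The higher gene was Ccr9, the gut-homing chemokine receptor that thymocytes also carry, at 18.84 in the Nr4a1-/- array, against 11.16 in its wild type and 10.32 in the circZbtb20+/+ array. The T cell markers averaged 14.89 on that array, and their part in the result was not tested. Itga4 was lower there by -3.07 and -2.32.

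Of 10 measured genes of vitamin D metabolism and response, 4 passed the filter, and 1 was higher and 1 lower in the circZbtb20-/- array against both wild types. Cyp2r1, a vitamin D 25-hydroxylase, was at 5.77, against 3.34 in its wild type and 4.40 in the Nr4a1+/+ array, and Pdia3, a disulfide isomerase of the endoplasmic reticulum, was at 10.17, against 12.42 and 11.80. Both wild-type values of Cyp2r1 lay under their array medians. It passed the filter in these comparisons only through the knockout array, and could be called only as higher. Cyp24a1, the enzyme that VDR induces to break down vitamin D, was at 4.32 in the circZbtb20-/- array, where Vdr was at 8.68, against 4.82 in its wild type and 4.51 in the Nr4a1+/+ array. Cd14 was the 1 lower gene on the Nr4a1-/- array, by -5.00 and -1.62. The macrophage marker list holds it too, and averaged 4.87 there, against 6.97 in its wild type, which was not tested as a part of the result.

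Partner receptors of RXR and coregulators were read last. Of 10 measured nuclear receptors that pair with RXR, 6 passed the filter, with 0 higher and 4 lower in the circZbtb20-/- array against both wild types, where 22.3% and 14.4% of all genes were. Besides Nr4a1 and Nr4a2, these were Pparg, the fatty acid sensor, by -2.49 and -1.74, and Nr1h3. The last, which encodes the oxysterol receptor LXR alpha, differed by -2.24 and -1.21. Pparg was at 2.91 on that array, against 5.40 and 4.65, and Nr1h3 at 3.45, against 5.69 and 4.66. Both knockout values lay under their array median, and the Nr4a1+/+ values were close to the median of 4.51. Nr4a1 itself and Nr4a2 were the 2 lower genes on the Nr4a1-/- array, with 0 higher, and Nr4a2 differed by -7.81 and -7.10. Among 13 measured coregulators, all past the filter, there were 8 higher and 1 lower in the Nr4a1-/- array against both wild types. Of all genes past the filter 28.4% were higher and 15.7% lower. On that array the coregulators had a median of 1.59 against its wild type and 1.78 against the other. All genes past the filter had medians of 0.29 and 0.30 there. Hdac3, the deacetylase of the NCOR complexes, was at 11.96 there, against 8.90 in its wild type and 8.10 in the circZbtb20+/+ array. Nsd1, a histone methyltransferase that binds nuclear receptors, was higher by 2.52 and 3.67 and Ncoa4 by 2.23 and 2.42. The lower gene was Nrip1, a corepressor of nuclear receptors, by -4.08 and -3.69. In the circZbtb20-/- array 2 coregulators were higher and 3 lower, with Ncoa1, a coactivator, higher by 1.97 and 1.90, Tbl1x by 1.48 and 1.09, Nrip1 lower by -1.56 and -1.95 and Tbl1xr1 by -1.43 and -2.04.

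**Figure D4:**
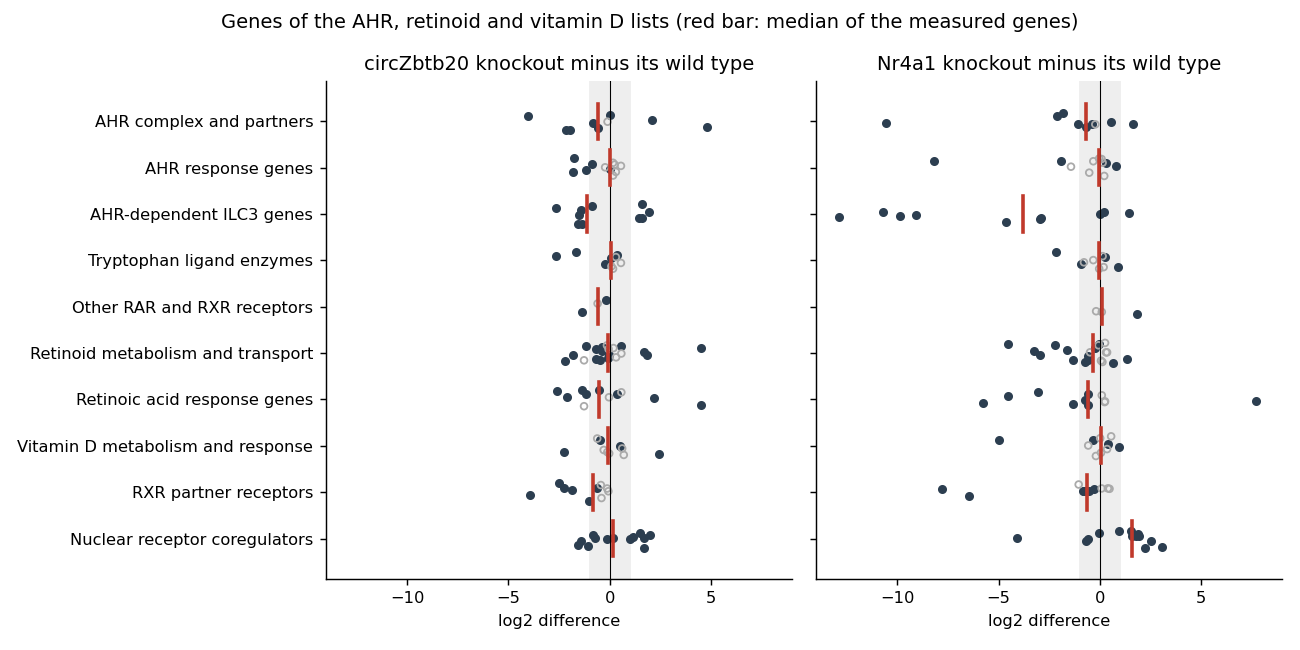
Log2 difference of each knockout from its own wild type (horizontal axis) for the measured genes of 10 lists (rows). Filled points passed the filter on low values, open points did not, red bars are medians of the measured genes, and the grey band is under 2-fold. The coregulators have a median of 1.59 in the Nr4a1-/- array and 0.16 in the circZbtb20-/- array, and the AHR-dependent ILC3 genes -3.80 and -1.14.

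Over all 10 lists, 99 distinct genes outside the 10 described genes were measured. Past the filter were 67 on the circZbtb20-/- array, and 13 of them lay higher, 22 lower, than both wild types. On the Nr4a1-/- array 66 passed, with 11 higher and 21 lower. Those 21 included the targeted gene Nr4a1 itself and the 7 AHR-dependent ILC3 genes, so the counts are no separate measure of the pathways. Among all genes past the filter the higher calls outnumbered the lower ones in both comparisons, 22.3% against 14.4% and 28.4% against 15.7%. That excess was smaller under cyclic loess, where 52.6% and 54.6% of the calls were higher ones, against 60.7% and 64.4% as deposited. After another quantile normalization the shares were 53.9% and 58.1%. With median centring the excess was larger, at 65.6% and 69.7%, so its size depended on the scaling.

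The genes with the pattern most like that of Ahr were found by the root mean square difference over the 4 arrays, each gene centred on its own mean, among 11614 genes. Thbs1, which encodes thrombospondin, and Clcf1, a cytokine of the IL-6 family, each lay at 0.203 log2 units from Ahr, and Ece1, an endothelin-converting enzyme, at 0.256. Within 0.5 units of Ahr lay 28 genes. For Tiparp the nearest were Itm2c at 0.0800, Tut4, a uridylyl transferase, at 0.122 and Herpud1, of the response to misfolded proteins, at 0.140, with 103 genes within 0.5. For Rara they were the transferrin receptor gene Tfrc at 0.109, Cmpk1 at 0.116 and Itpkb at 0.169, with 90 within 0.5, and for Arnt the interferon-stimulated gene Ifit1 at 0.0510, Ltv1 at 0.0710 and Plod2 at 0.0820, with 472 within 0.5. With 4 arrays many genes share a pattern, so nearness is a description only.

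**Figure D5:**
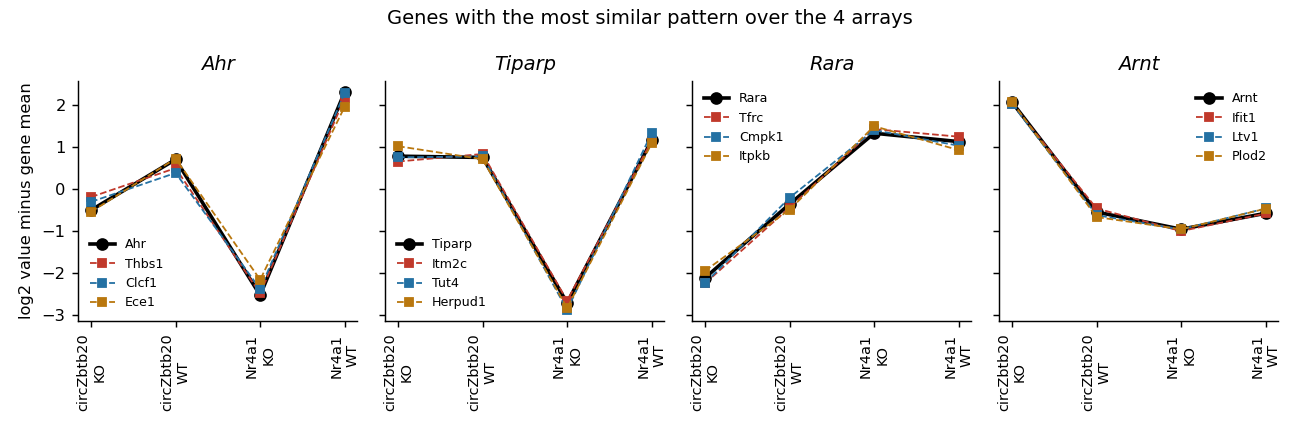
Deposited log2 value minus the gene's mean over the 4 arrays (vertical axis) for Ahr, Tiparp, Rara and Arnt (black) and the 3 genes nearest to each (coloured), by array. The Ahr group is highest in the Nr4a1+/+ array and lowest in the Nr4a1-/- array, the Tiparp group is low on the Nr4a1-/- array only, and the Arnt group is high on the circZbtb20-/- array only.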

How the data were processed

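The table holds deposited log2 expression values, made by the authors with Affymetrix Power Tools and RMA, per the submitters' processing notes. Their versions, their settings and the build were not given in the sources used here. RMA is meant to equalise the distributions of arrays, so a change in total RNA per cell cannot be seen. The deposited distributions still differed, with 95th percentiles of 11.38 in the circZbtb20+/+ array and 11.89 in the circZbtb20-/- array. Between 3 and 25 rows per array stood at the ceiling. Of 22205 rows, 19571 had 1 gene symbol in the platform's probe table, and of several rows of a gene the 1 with the highest mean was used. The design text names another Affymetrix array than the row identifiers do. Samples were grouped by title, with 1 array per genotype.

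Differences, calls and medians were computed in Python 3.11.15. The limma fit with Benjamini-Hochberg adjustment over 19504 genes was run in R 4.3.3 with limma 3.58.1. The size rule of the calls and the limma fit were tested on simulated data, and the low-value filter and the medians were not. Alternatives were 2 normalizations, median centring, no filter, a 4-fold size, mean rows, the other wild type and both wild types averaged. The genes and lists were chosen with earlier results of these data known. Named list genes are up to 4 per list and knockout, called against both wild types with the greatest smaller difference. Nqo1, Ido1, Cyp24a1, Rarb and Rxrg were named outside this rule, for their role.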

Additional observations from a re-analysis of the deposited data

How the results depend on the processing

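Counts of called genes among the 10 were within 1.5 times the reported count under another quantile normalization, cyclic loess, median centring and no filter, where each was run; each of the 10 genes has 1 row, so averaging rows could not change them. With a 4-fold size the count was 2 in the circZbtb20 knockout and 2 in the Nr4a1 knockout against their own wild types, 0 between the wild types, and 1 and 2 against both wild types. Against the Nr4a1 wild type the circZbtb20 knockout had 4 called genes instead of 7. By limma's adjusted p fewer genes passed in each knockout than were called. The limma error has 1 residual degree of freedom besides the prior drawn from all genes. Rarg changed sign with the wild type in both knockouts, in the circZbtb20 knockout to 0.46 from a called -1.15 and in the Nr4a1 knockout to a called -1.12 from 0.49. Under the 3 scalings 85 of 90 single-gene differences kept their sign and 5 did not, in Tiparp, Rara and Cyp1a1, of which 0 were called as deposited. Against the other wild type Tiparp, at -0.38, and Cyp1a1, at 0.10, also changed sign in the circZbtb20 knockout. No paired analysis was possible because each genotype has 1 array. No replicate could be left out. Values near or under the array medians are limited by background.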
